A study of Mus musculus with 35 samples.

Results

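The genes of the proteasome were followed in brown adipose tissue, the heat-producing fat depot of the mouse. Members were all genes of the count tables whose symbol is Psma, Psmb, Psmc, Psmd, Psme, Psmf or Psmg followed by a digit, without the inducible immunoproteasome genes Psmb8, Psmb9, Psmb10, Psme1 and Psme2, together with Nfe2l1. This rule used no measured value. It found 43 of 10731 genes in the first experiment, of which 42 passed the filter on low counts and Psmc3ip did not, and 44 of 13233 genes in the second, all of which passed. The 44 genes comprise 7 alpha and 7 beta subunits of the 20S core, 6 ATPases and 11 non-ATPase subunits of the 19S cap, 7 assembly chaperones, 3 activators or inhibitors and the transcription factor Nfe2l1. The other 2, Psmc3ip and Psme2b, matched by name only. Psmc3ip encodes a meiotic recombination protein and not a proteasome subunit, and Psme2b is a near-identical copy of the left-out gene Psme2.

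The proteasome is the barrel-shaped protease that degrades ubiquitin-tagged proteins. Its 20S core has outer alpha rings that gate the entry and inner beta rings, in which Psmb5, Psmb6 and Psmb7 carry the chymotrypsin-like, caspase-like and trypsin-like active sites. The 19S cap binds ubiquitin chains and unfolds the substrate with a ring of ATPases. Nfe2l1 is a membrane-bound transcription factor of the cap'n'collar family that switches on proteasome genes when proteasome activity falls, and in mouse brown fat it is known to be needed for adaptation to cold.

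The study compared double knockout mice (Suv420h dKO, written as knockout here) with control mice. Suv420h1 and Suv420h2 are histone methyltransferases. The first experiment held 6 knockout libraries, 5 labelled female and 1 male, and 9 control libraries, 5 labelled female and 4 male, all from mice fed normal diet and taken at an age of 4 weeks. In the second there were 4 groups of 5 libraries from female mice of 21 weeks: knockout and control mice fed a diet with 45 kJ% fat for 14 weeks, and knockout and control mice on normal diet. The labels give neither the strain nor the promoter or cell type in which the genes were deleted, and do not say whether each library is a separate animal, so p-values measure the spread between these samples only. Counts come from 3' tags, which do not scale with transcript length. Levels are given in CPM, counts scaled to a common library size, and are compared between libraries and not between genes. In bulk tissue they cannot tell fewer cells of a type from less RNA per cell.

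Total counts ranged from 3069035 to 8140213 per library at 4 weeks and from 2398807 to 7693388 at 21 weeks. Suv420h1 and Suv420h2 were not analysed here at 4 weeks. At 21 weeks Suv420h2 averaged 17.7 ± 4.65 CPM in knockout and 49.8 ± 19.8 CPM in control libraries on normal diet, and 10.5 ± 4.29 CPM in knockout and 17.9 ± 8.07 CPM in control libraries on high fat diet, with SD over n = 5 each. Its edgeR adjusted p was 0.0218 on normal diet and 0.913 on high fat diet. Suv420h1 averaged 39.0 CPM in knockout and 42.2 CPM in control libraries on normal diet, and 39.2 CPM in knockout and 32.1 CPM in control libraries on high fat diet. The sources used here do not say whether the tags lie outside the deleted parts, so these levels do not check the labels. The 4-week libraries form 2 sets that no label names, the last 9 and the first 6 sample columns of the deposited counts. In the 9 libraries here called set B (4 knockout, 5 control) 14.1% to 20.4% of counts were mitochondrial, and in the 6 called set A (2 knockout, 4 control) 27.4% to 30.1% were. All of set B was labelled female and 5 libraries of set A were labelled male. Xist went against the labelled sex in 2 libraries of set A, at 1.57 CPM in knockout 2, labelled female, and 236 CPM in control 6, labelled male. The brown fat markers summed to 15653 CPM or more in every library of the second experiment and to 21753 CPM or more in the first. A lymphocyte list was not analysed here.

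Promoters of 2 beta subunit genes are shown because both stood lower in knockout libraries at 21 weeks on normal diet and both carry the core letters of the antioxidant response element, the element that cap'n'collar factors such as Nfe2l1 bind. Each line gives the 120 bases 5' of the most upstream annotated start, from RefSeq on GRCm38.p6, 5' to 3' on the strand of the gene, with TGACNNNGC in capitals. Psmb5 is on chr14:54618023-54618142, minus strand, and Psmb6 on chr11:70525237-70525356, plus strand.
Psmb5: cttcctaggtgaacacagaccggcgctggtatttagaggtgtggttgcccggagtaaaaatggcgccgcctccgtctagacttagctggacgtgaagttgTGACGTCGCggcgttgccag
Psmb6: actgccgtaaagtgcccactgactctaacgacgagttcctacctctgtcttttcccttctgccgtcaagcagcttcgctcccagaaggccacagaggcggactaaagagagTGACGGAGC
TGACNNNGC was searched on both strands from 250 bases before to 50 after each start. It was found in 6 of the 37 members that have such a window, 16.2%, against 14.0% of 27025 genes. Besides Psmb5 and Psmb6 the 6 were Psmc6, Psmd9, Psmd12 and Psme4. Psmd13, which also stood lower in knockout libraries at 21 weeks on normal diet without overlap, was not among the 6. The 2 promoters shown were chosen after these values were seen. A match describes letters and not a bound site, and the share among members is close to that of all genes.

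At 4 weeks the genes of the core and cap stood mostly higher in knockout than in control brown fat. Of 42 members tested, 35 had a positive log2 fold change of knockout over control, with a median of 0.20, whereas 5085 of all 10366 genes were positive, with a median of -0.01. Only 1 member, Psma7, was called at an adjusted p below 0.05 (edgeR's quasi-likelihood test, Benjamini-Hochberg adjustment over all genes), and it was higher. In this comparison 0.83% of all genes were called and 0.502% were called higher. At an unadjusted p below 0.05 there were 9 members, all higher, beside 15.9% of all genes in either direction and 8.29% that were higher.

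Psma7, a subunit of the alpha ring (chromosome 2, 180036374 to 180042433, GRCm38), had 302, 276, 252, 299, 260 and 283 CPM in knockout libraries. It had 120, 181, 192, 223, 199, 194, 182, 188 and 197 CPM in control libraries. The groups did not overlap, and Psma7 was the 1 member of which this held, beside 0.338% of all genes that stood higher without overlap. Its log2 fold change was 0.59 ± 0.13 (SE), a 1.5-fold higher level, with an edgeR adjusted p of 0.0331. The difference had about the same size within the sets, at 0.54 in set B (adjusted p 0.0735) and 0.65 in set A (adjusted p 0.457). Its adjusted p was 0.0650 with no term for labelled sex and 0.124 in the libraries labelled female. The call also ended without any 1 of 8 libraries, with adjusted p values of 0.151 without knockout 1, 0.0514 without knockout 3, 0.0754 without knockout 4, 0.0572 without knockout 6, 0.0570 without control 3, 0.0556 without control 5, 0.0651 without control 7 and 0.0827 without control 8. The fold change stayed between 0.55 and 0.61 over the 15 such fits. In the authors' deposited table the log2 fold change of Psma7 was 0.54 with an adjusted p of 0.00111.

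By role, the 4-week fold changes of core and cap were mostly positive. All 7 alpha subunits had positive fold changes, with a median of 0.29. Their summed level was 873 ± 31.1 CPM in knockout libraries (n = 6), from 825 to 914 CPM, and 690 ± 57.4 CPM in control libraries (n = 9), from 588 to 778 CPM, so the groups did not overlap. This sum includes Psma7 and is not separate from its result. All 6 ATPases were positive too, with a median of 0.32, as were 10 of 11 non-ATPases and 5 of 7 beta subunits, with medians of 0.20 each. Of these 24 genes edgeR called none, and DESeq2 called Psmc6. Among all 42 members DESeq2 called 2, beside 315 of all 10366 genes. Among the ATPases Psmc6 had the smallest adjusted p of the members not called, 0.101, with a log2 fold change of 0.45 ± 0.13 (SE). Psmc6 had 122, 88.1, 124, 138, 115 and 132 CPM in knockout libraries, against 74.7 to 104 CPM, with a median of 82.4, in control libraries. The groups overlapped through knockout 2 alone, and without that library the adjusted p was 0.0343. By DESeq2 it was 0.0206 with all libraries. Next came Psmb1, a non-catalytic beta subunit, at 0.35 ± 0.14 (SE, adjusted p 0.231), with 160 to 234 CPM in knockout and 87.6 to 192 CPM in control libraries. The authors' deposited table lists 6 members below an adjusted p of 0.05 at 4 weeks, all higher in knockout: Psma7, Psmb1, Psmc1, Psmc5, Psmc6 and Psmd13. That table has 6 of 43 members and 461 of all 10731 genes below this threshold.

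Of the assembly chaperones 4 of 7 were positive, with a median of 0.02. Their summed level was 153 ± 16.9 CPM in knockout and 151 ± 13.8 CPM in control libraries. The 2 activators Psme3 and Psme4 and the inhibitor Psmf1 had fold changes of 0.12 to 0.30, none called. Psme4, the nuclear PA200 activator, stood at 0.30 (adjusted p 0.292). Nfe2l1 had 184, 231, 338, 314, 324 and 312 CPM in knockout libraries and 173 to 387 CPM, with a median of 297, in control libraries. The knockout range lay within that of the control libraries, and its fold change was -0.11 ± 0.12 (SE, adjusted p 0.665), with a 95% interval from -0.34 to 0.11. Psmb5 had 34.6 to 141 CPM in knockout and 33.3 to 137 CPM in control libraries, a fold change of -0.07 ± 0.32 (SE, adjusted p 0.937). All 5 immunoproteasome and PA28 genes that the rule leaves out had negative fold changes. Of these Psme1, which encodes PA28 alpha, was called, at -0.55 with an adjusted p of 0.0498, and averaged 31.2 ± 5.28 CPM in knockout and 45.8 ± 4.53 CPM in control libraries. Its groups did not overlap, with 26.2 to 38.6 CPM in knockout and 41.0 to 56.3 CPM in control libraries. Of all genes 0.328% were called lower and 0.241% stood lower without overlap.

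Other markers differed between these groups as well. In the white fat list 3 of 4 genes had positive fold changes and 2, Agt and Nnat, were called higher, and of the brown fat list 10 of 13 were positive and Elovl3 was called higher. The white fat sum was 57.4 to 162 CPM in knockout and 25.6 to 125 CPM in control libraries. The brown fat sum was 26383 to 44388 CPM in knockout and 21753 to 37689 CPM in control libraries. Of 9 endothelial genes 8 were negative, with a median of -0.21, and the list summed to 724 to 1163 CPM in knockout and 721 to 1130 CPM in control libraries. Of 8 macrophage genes 6 were negative, with a median of -0.31, and the list summed to 144 to 282 CPM in knockout and 120 to 325 CPM in control libraries. EdgeR and DESeq2 called 0 genes of the endothelial and macrophage lists, and 1 endothelial and 3 macrophage genes had an unadjusted p below 0.05. The part of these 4 lists in the proteasome result was not tested. Of 21 skeletal muscle genes 16 were negative, 0 were called by edgeR or DESeq2 and 0 had an unadjusted p below 0.05.

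**Figure D1:**
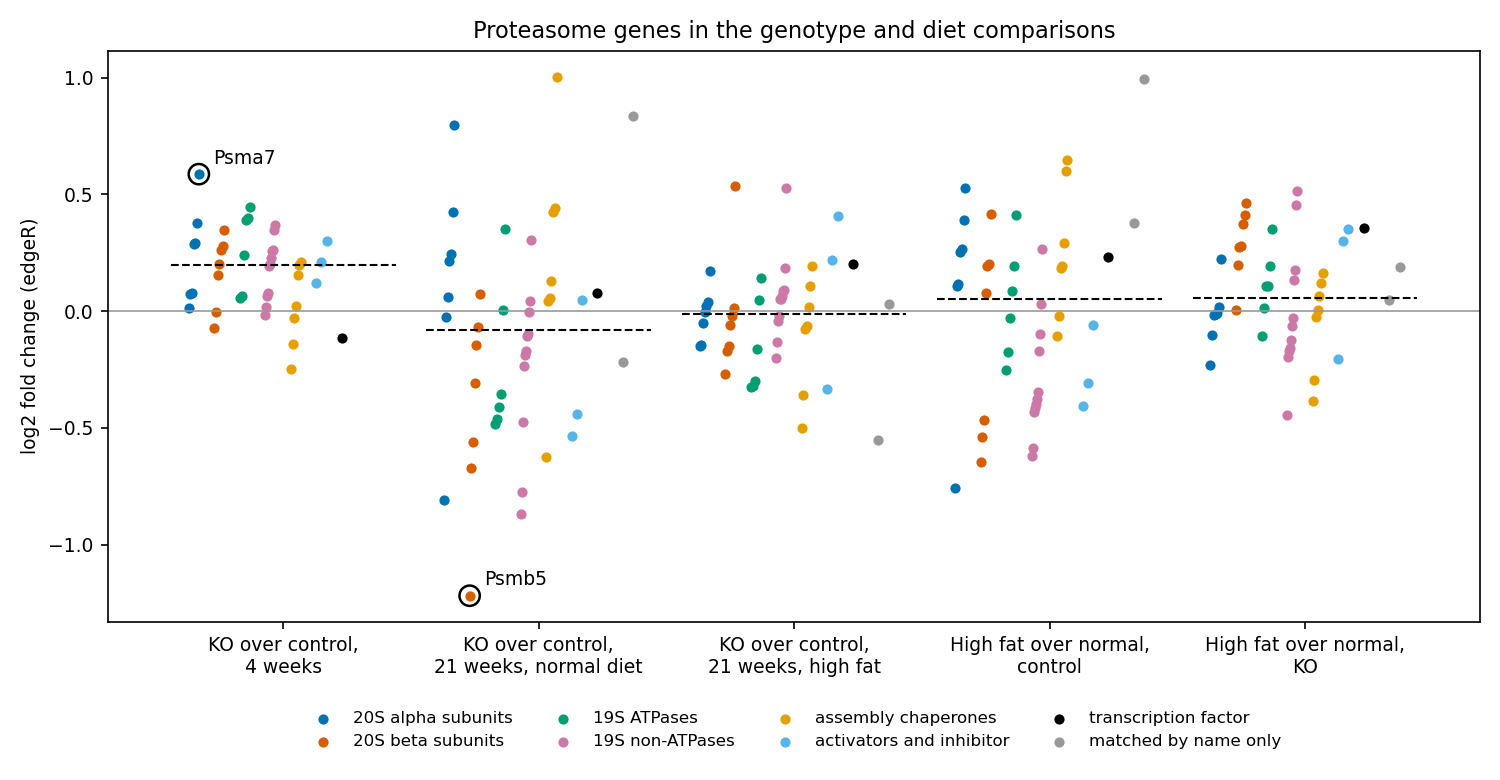
Log2 fold changes of the members in 5 comparisons, 1 point per gene, coloured by role. Dashed lines mark the median of the members and rings the genes with an adjusted p below 0.05, Psma7 at 0.59 at 4 weeks and Psmb5 at -1.22 at 21 weeks on normal diet.

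Labelled sex at 4 weeks nearly coincides with the 2 sets of libraries, and many members differed along it. Of 42 members 20 were called, 13 higher and 7 lower in the libraries labelled female, beside 35.2% of all genes called, 17.8% higher and 17.4% lower. At an unadjusted p below 0.05 there were 24 members, beside 45.1% of all genes. DESeq2 called 23 members, beside 3817 of all 10366 genes. With the set as a further term edgeR called none of them, so this fit cannot tell the effects of labelled sex and of the library set apart. The GC content of transcript ends moved with the sets too. A GC coefficient, the rank correlation over genes of a library's deviation from the mean level with the GC content of the last 1000 bases of the transcript (or all of it where shorter), was -0.03 to 0.23 in set B and -0.22 to -0.08 in set A. With it as a term, added after seeing the data, edgeR called 0 members for sex, and Psma7 kept its call for genotype (adjusted p 0.0317). By role, the called genes that were higher in libraries labelled female were mostly of the 19S cap: the ATPases Psmc1, Psmc3 and Psmc5 and the non-ATPases Psmd2, Psmd3, Psmd4, Psmd7, Psmd12 and Psmd13. The others were Psma5, Psmb2, Psmb6 and Nfe2l1. The genes that were lower were Psma6, Psmb4, Psmb5, Psmc2, Psmd1, Psmd5 and Psmd11.

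The largest fold change was that of Psmc1, an ATPase, at 2.04 ± 0.31 (SE). Its levels were 473 to 1118 CPM in set B and 67.9 to 235 CPM in set A, with no overlap. Psmd4, the ubiquitin receptor known as Rpn10, followed at 1.66 ± 0.25 (SE), with 489 to 952 CPM in set B and 126 to 308 CPM in set A. Psmc5, another ATPase, had 166 to 408 CPM in set B and 38.8 to 117 CPM in set A. Nfe2l1 had a fold change of 0.78 ± 0.12 (SE), with 297 to 387 CPM in set B and 173 to 231 CPM in set A. In the other direction, Psmd11, a non-ATPase, had 69.8 to 106 CPM in set B and 126 to 201 CPM in set A. Psmb5 followed its direction, with 33.3 to 99.5 CPM in set B and 76.4 to 141 CPM in set A, overlapping ranges. Knockout 2, the 1 library of set A labelled female, had the highest Psmc1 level of that set, 235 CPM, and stood below all 9 libraries of set B. Its Xist level, 1.57 CPM, went against its label, so this library cannot separate sex from set. Control 6 of set A, labelled male, had 236 CPM of Xist. The ATPases summed to 554 CPM in control 6 and 715 CPM in knockout 2, against 1045 to 2133 CPM in set B. The part of sex as read from Xist was not tested.

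Summed over roles, the ATPases stood at 1401 ± 341 CPM in set B (n = 9) and 567 ± 137 CPM in set A (n = 6), and the non-ATPases at 2420 ± 292 CPM in set B and 1545 ± 215 CPM in set A. The alpha subunits stood at 767 ± 95.4 CPM in set B and 757 ± 125 CPM in set A. Genes of cell type marker lists were called for labelled sex as well, given here as female over male. The brown fat list summed to 36412 ± 5940 CPM in set B and 25161 ± 3013 CPM in set A, and for labelled sex edgeR called 4 of its 13 genes higher and 0 lower. The endothelial list summed to 1039 ± 100.1 CPM in set B and 772 ± 57.4 CPM in set A, and 2 of its 9 genes were called higher and 1 lower. The macrophage list summed to 213 ± 71.2 CPM in set B and 185 ± 45.5 CPM in set A, and 1 of its 8 genes was called higher and 3 lower. Their part in the sums of the roles was not tested. Within each set the knockout mean was the higher for each of the 4 roles of core and cap. In set B the alpha sum was 825 to 895 CPM in knockout and 646 to 741 CPM in control libraries, and in set A it was 878 and 914 CPM in knockout and 588 to 778 CPM in control libraries. The beta sum was 970 to 1073 CPM in knockout and 830 to 894 CPM in control libraries of set B. In set A the beta sums overlapped, with 879 and 985 CPM in knockout and 628 to 897 CPM in control libraries.

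**Figure D2:**
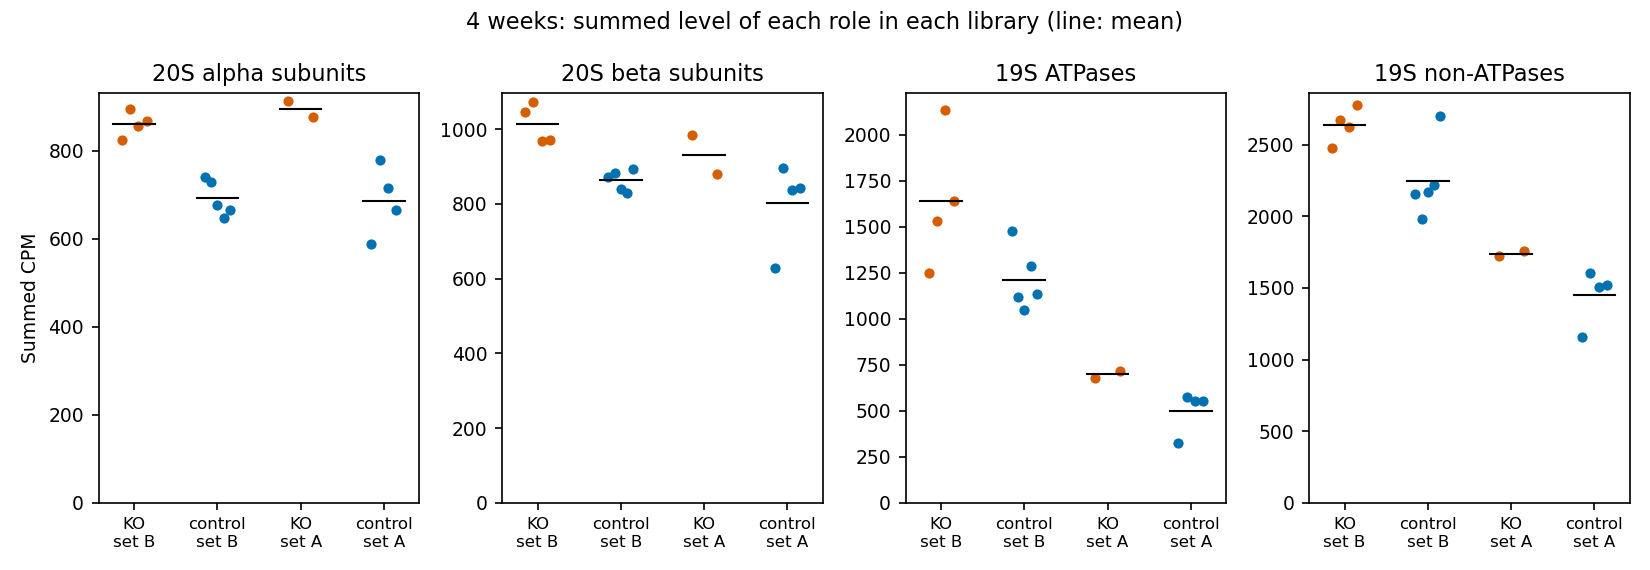
Summed CPM of the alpha, beta, ATPase and non-ATPase members in each 4-week library, split by library set and genotype, with a line at each mean. The ATPase sums differ between the sets (1401 and 567 CPM on average), whereas the alpha sums, which include Psma7, do not overlap between knockout and control libraries.

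At 21 weeks on normal diet the catalytic subunit Psmb5 fell to 0.43 of its control level in knockout brown fat, and Psmb6 and Psmd13 stood lower without overlap but missed the threshold. Of 44 members tested 25 had negative fold changes, with a median of -0.08, against 0.02 over all 12082 genes. Psmb5 alone was called, lower in knockout, and 2.65% of all genes were called, 1.36% lower. At an unadjusted p below 0.05 there were 11 members, 10 lower and 1 higher, beside 20.8% of all genes in either direction and 10.8% that were lower. By role, 6 of 7 beta subunits and 9 of 11 non-ATPases were negative, whereas 5 of 7 alpha subunits and 6 of 7 assembly chaperones were positive.

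Psmb5, the chymotrypsin-like subunit that is the main target of proteasome inhibitor drugs (chromosome 14, 54614119 to 54618022, GRCm38), had 15.8, 13.6, 19.1, 17.9 and 12.6 CPM in knockout libraries. It had 35.6, 22.5, 34.5, 41.8 and 49.8 CPM in control libraries. Every knockout library was below every control library. Its log2 fold change was -1.22 ± 0.22 (SE), with a 95% interval from -1.65 to -0.78 and an edgeR adjusted p of 0.00609. It was called in all 20 fits that leave out 1 library, with fold changes from -1.35 to -1.08. It was also called with the mean log2 level of muscle genes as a term (edgeR adjusted p 0.0216). Without controls 2 and 4, the richest in muscle transcripts, it was called too (edgeR adjusted p 0.00371). Control 3 stayed in that fit at a mean log2 muscle level of 7.40, above the 0.40 to 5.70 of the knockout libraries. In the authors' deposited table of the second experiment, whose header does not say how the diets entered, the log2 fold change of Psmb5 was -1.63 with an adjusted p of 0.00196. The authors' deposited table lists 3 members below an adjusted p of 0.05 in that experiment, all lower in knockout, the others being Psmd10 at -0.99 (adjusted p 0.0381) and Psmb6 at -0.77 (adjusted p 0.0435). That table has 3 of 44 members and 466 of all 13251 genes below this threshold. Psmd13 had -0.67 in the authors' deposited table (adjusted p 0.231).

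Reads of Psmb5 can be shared with copies, which limits its level. The last 300 bases of its transcript match Gm3375 and Psmb5-ps at 95% identity or more. Gm3375 was counted at 21 weeks and not analysed here at 4 weeks. It had 33.5, 33.8, 29.7, 33.6 and 29.2 CPM in knockout and 45.5, 49.9, 49.3, 77.4 and 41.3 CPM in control libraries on normal diet, so it too did not overlap between the groups, at a log2 fold change of -0.71 (edgeR adjusted p 0.0441). With the counts of Gm3375 added to Psmb5, a choice made after seeing the data, the fold change was -0.90 and the edgeR adjusted p 0.00553.

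Psmb6, the caspase-like subunit (chromosome 11, 70525367 to 70527858), had 104, 95.6, 101, 132 and 97.6 CPM in knockout libraries and 164, 142, 140, 197 and 142 CPM in control libraries. Its groups did not overlap either, at a log2 fold change of -0.56 ± 0.16 (SE) and an edgeR adjusted p of 0.0610. Psmb7, which carries the trypsin-like site, had a fold change of -0.15 (adjusted p 0.701). Psmd13, a non-ATPase known as Rpn9, was the third member without overlap. It had 168, 154, 120, 184 and 170 CPM in knockout libraries and 326, 197, 193, 471 and 269 CPM in control libraries, at -0.87 ± 0.28 (SE, adjusted p 0.0805). An exon of Psmd13 overlaps Sirt3 on the opposite strand, and the counting's strand setting is unknown, so its reads may include some of Sirt3. Thus 3 of 44 members stood lower without overlap and 0 stood higher, beside 1.8% and 2.53% of all genes. DESeq2 called 4 members, all lower: Psmb5, Psmb6 (adjusted p 0.0136), Psmd13 (adjusted p 0.0328) and Psmd10 (adjusted p 0.0360), an assembly chaperone also known as gankyrin. These 4 of 44 members stand beside 884 of all 12082 genes called by DESeq2. In the other direction Psmd5, an assembly chaperone, had the highest fold change, 1.00 ± 0.35 (SE, adjusted p 0.112), with levels of 11.3 to 26.3 CPM in knockout and 2.76 to 15.9 CPM in control libraries. Nfe2l1 had 374, 316, 300, 373 and 299 CPM in knockout and 257, 296, 345, 374 and 304 CPM in control libraries, overlapping groups with a fold change of 0.08 (adjusted p 0.833).

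Summed over all members, levels were 4205 ± 171 CPM in knockout and 4831 ± 490 CPM in control libraries on normal diet. The beta subunits gave 733 to 871 CPM in knockout and 853 to 1248 CPM in control libraries, and the alpha subunits 732 to 813 CPM in knockout and 556 to 771 CPM in control libraries, so both pairs overlapped.

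Muscle transcripts and GC content also moved with genotype on this diet. Skeletal muscle genes were lower in knockout libraries in 26 of 27 cases, Myl1 and Myl3 were called, and the muscle list summed to 1458 to 3830 CPM in knockout and 1622 to 44542 CPM in control libraries. The median muscle fold change was -4.05, 23 of these genes had an unadjusted p below 0.05 and DESeq2 called 9. The muscle score, which averages the log2 levels of the muscle genes, was 0.40 to 5.70 in knockout and 2.21 to 9.69 in control libraries. The GC coefficient was negative in all 5 knockout libraries, from -0.17 to -0.03, and positive in all 5 control libraries, from 0.02 to 0.22. The mitochondrial share of counts was 17.7% to 19.1% in knockout and 11.9% to 18.3% in control libraries. Of 10 macrophage genes 8 were negative, with a median fold change of -0.57, edgeR called 0, DESeq2 called 0 and 1 had an unadjusted p below 0.05. The macrophage list summed to 94.1 to 162 CPM in knockout and 124 to 308 CPM in control libraries. The part of the mitochondrial share and of the macrophage genes in the proteasome values was not tested. Psmb5 ends in 56.6% GC, Psmb6 in 55.8% and Psmd13 in 54.2%, against a median of 48.7% among the members and 45.7% among all genes. With the coefficient as a term Psmb5 had a fold change of -1.03 and an edgeR adjusted p of 0.0468. With the same term the fold change of Psmb6 was -0.39 (adjusted p 0.361) and that of Psmd13 was -0.29 (adjusted p 0.671). With the muscle score as a term Psmb6 stood at -0.54 (edgeR adjusted p 0.195) and Psmd13 at -0.97 (edgeR adjusted p 0.165). Without controls 2 and 4 Psmb6 stood at -0.48 (edgeR adjusted p 0.194) and Psmd13 at -0.72 (edgeR adjusted p 0.240).

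**Figure D3:**
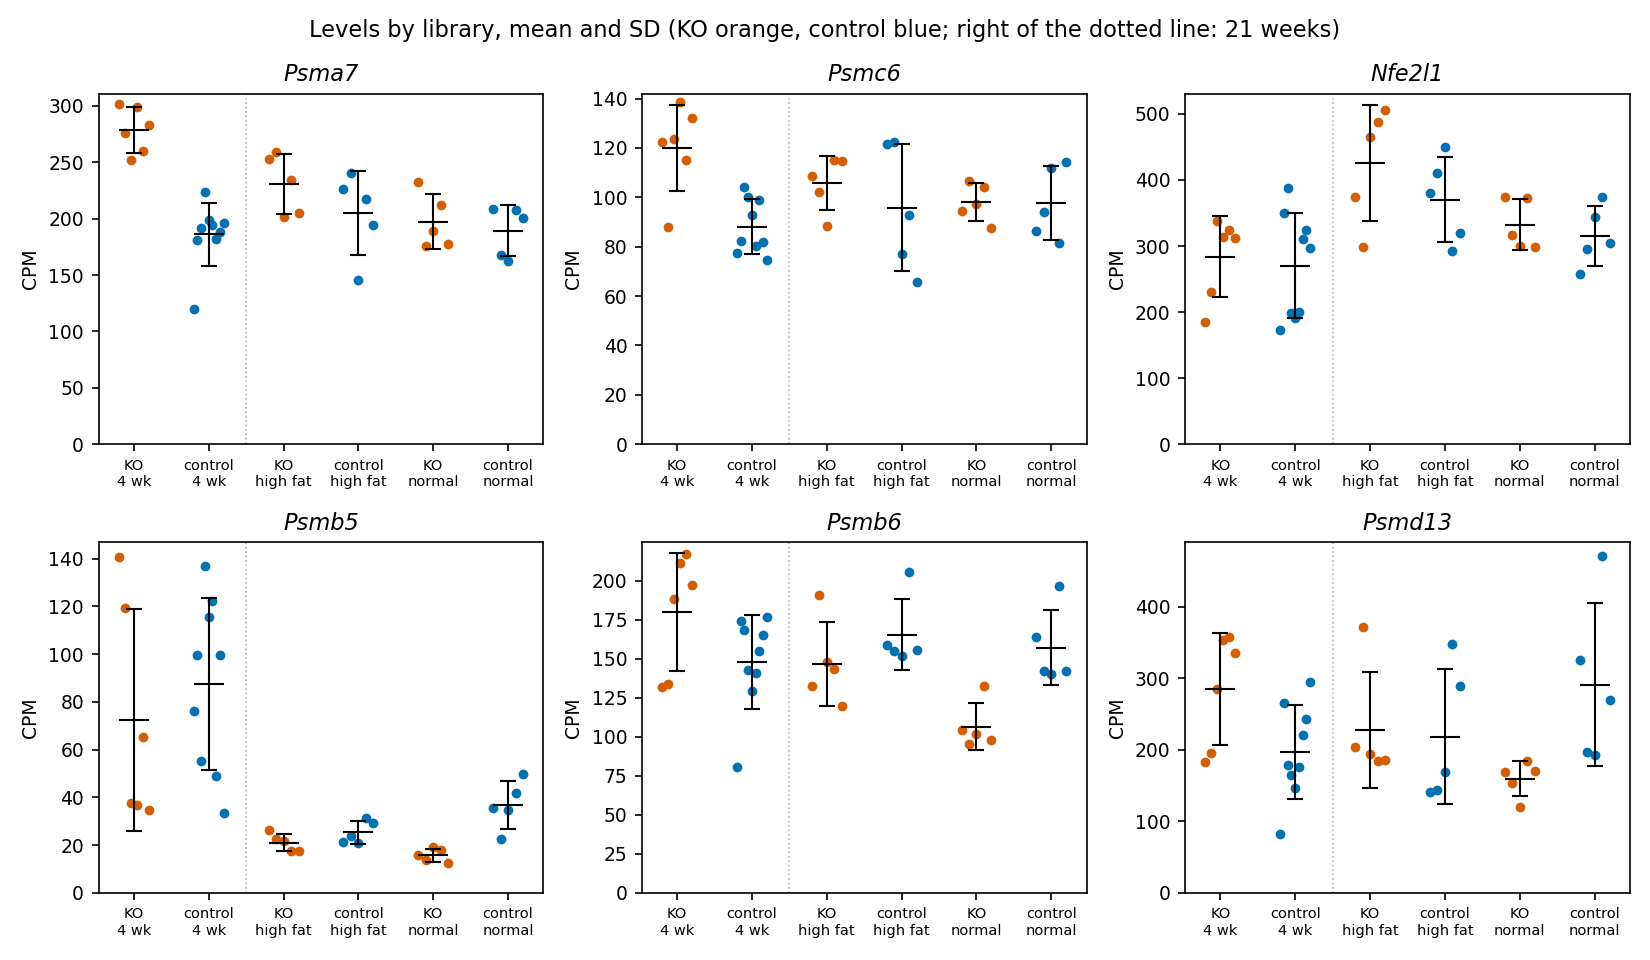
CPM of Psma7, Psmc6, Nfe2l1, Psmb5, Psmb6 and Psmd13 in every library, knockout in orange left of control in blue, with mean and SD; the 4-week libraries lie left of the dotted line and the 21-week libraries right of it. Psma7 does not overlap between knockout and control at 4 weeks, and Psmb5, Psmb6 and Psmd13 do not overlap at 21 weeks on normal diet.

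On high fat diet no member differed between knockout and control brown fat past the threshold. EdgeR called 0 of 44 members, beside 0.116% of all genes, and 4 had an unadjusted p below 0.05, beside 5.07%. DESeq2 called 0 members, beside 72 of all 12082 genes. The median fold change was -0.01, the same as over all genes, and 0 members were without overlap, beside 2.1% of all genes. Of 27 muscle genes 25 were negative, with sums of 1330 to 2189 CPM in knockout and 1258 to 7110 CPM in control libraries. The median muscle fold change was -6.75, edgeR called 0 of these genes, 17 had an unadjusted p below 0.05 and DESeq2 called 14. Control 3 alone stood apart, at a muscle score of 6.56. The other control libraries had scores of 0.35 to 0.46, and the knockout libraries 0.42 to 0.56. Psmb5 had 26.3, 22.3, 21.7, 17.6 and 17.3 CPM in knockout and 21.3, 23.7, 20.8, 31.4 and 29.4 CPM in control libraries. These groups overlapped, with a fold change of -0.27 (95% interval from -0.69 to 0.16, adjusted p 0.999). Psma7 had a fold change of 0.17 (95% interval from -0.14 to 0.48), and Nfe2l1 one of 0.20 (interval from -0.13 to 0.54). The smallest unadjusted p belonged to Psmd3, a non-ATPase known as Rpn3, which had 174, 320, 201, 216 and 244 CPM in knockout and 160, 130, 172, 140 and 199 CPM in control libraries, a fold change of 0.53 (adjusted p 0.626). Psme2b followed at -0.55 (adjusted p 0.832) and Psme4 at 0.41 (adjusted p 0.913).

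High fat diet itself was compared with normal diet within each genotype. In control mice edgeR called 0 of 44 members, beside 0.795% of all genes. DESeq2 called Psmd2 and Psmd3, beside 502 of all 12082 genes. At an unadjusted p below 0.05 there were 2 higher and 7 lower members, beside 8% and 8.2% of all genes and 16.2% in either direction. Here 9 of 11 non-ATPases were negative. Psmd2, a scaffold subunit of the cap known as Rpn1, had 139, 143, 170, 181 and 176 CPM on high fat and 205, 213, 243, 200 and 229 CPM on normal diet. Its transcript has a near-identical copy, Gm5422. It was the 1 member without overlap, lower on high fat diet, beside 1.03% of all genes. Its fold change was -0.43 ± 0.14 (SE, edgeR adjusted p 0.121), and that of Psmd3 was -0.59 ± 0.18 (SE, edgeR adjusted p 0.0995). Psmb5 stood at -0.54 (edgeR adjusted p 0.210). The muscle list differed here too, with 1258 to 7110 CPM on high fat and 1622 to 44542 CPM on normal diet. EdgeR called 1 of its 27 genes, lower, 19 had an unadjusted p below 0.05 and DESeq2 called 6. With the muscle score as a term the fold change of Psmd2 was -0.40 (edgeR adjusted p 0.684) and that of Psmd3 was -0.71 (edgeR adjusted p 0.530).

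In knockout mice edgeR called 0 of 44 members for diet, beside 0.372% of all genes. DESeq2 called 0 members, beside 166 of all 12082 genes. At an unadjusted p below 0.05 there were 3 members, all higher, beside 9.21% of all genes in either direction and 4.78% that were higher. All 7 beta subunits had positive fold changes, from 0.004 to 0.46. Over the members the fold changes of this comparison had a rank correlation of 0.46 with the GC content of transcript ends, against 0.02 over all genes. Psmb6 had the smallest p, at 0.46 ± 0.16 (SE, edgeR adjusted p 0.300). It had 132, 191, 148, 143 and 120 CPM on high fat and 104, 95.6, 101, 132 and 97.6 CPM on normal diet. Without knockout 2 on high fat diet its fold change was 0.36 (edgeR adjusted p 0.640). Psmd8, a non-ATPase known as Rpn12, had 340, 355, 371, 403 and 365 CPM on high fat and 297, 233, 233, 263 and 312 CPM on normal diet, without overlap, at 0.46 (edgeR adjusted p 0.309). Psmb1 and Psmd13 were also higher on high fat diet without overlap, making 3 of 44 members, beside 2.47% of all genes. Nfe2l1 had 374, 298, 464, 488 and 506 CPM on high fat and 374, 316, 300, 373 and 299 CPM on normal diet. On high fat diet 3 libraries lay above all of those on normal diet and knockout 2 lay below them, and the fold change was 0.36 ± 0.17 (SE, edgeR adjusted p 0.537). The muscle list summed to 1330 to 2189 CPM on high fat and 1458 to 3830 CPM on normal diet, and 25 of its 27 genes were negative, with a median of -6.40. EdgeR called 0 of these muscle genes, 14 had an unadjusted p below 0.05 and DESeq2 called 15.

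The interaction, the genotype effect on high fat diet minus that on normal diet, was tested directly and called 0 members and 0 of all genes (0%) by edgeR. DESeq2 called 0 members, beside 12 of all 12082 genes, and 6 members had an unadjusted p below 0.05, beside 6.39% of all genes. Psmb5 had the smallest p, at 0.95 ± 0.31 (SE) with an edgeR adjusted p of 0.632, so the loss of its call on high fat diet was not shown to be a difference between diets. Psmd3 followed at 0.76 and Psmd13 at 0.93, with adjusted p values of 0.632 and 0.767. The 4 comparisons at 21 weeks share groups, so their values are not independent of each other.

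Single libraries departed from their groups in a shared manner at 21 weeks. Psmd4 had 450 CPM in knockout 2 on high fat diet, against 173 to 199 CPM in the other 4 of that group, and Psmd13 had 372 CPM there, against 185 to 205 CPM. In control mice on high fat diet Psmd4 had 338 and 398 CPM in controls 4 and 5, against 159 to 167 CPM in the other 3, and on normal diet 635 CPM in control 4, against 228 to 385 CPM. Psma5, an alpha subunit whose transcript also has near-identical copies, ran the other way in these libraries. It had 4.83 CPM in knockout 2 and 13.1 to 28.3 CPM in the others of that group, 4.47 and 8.90 CPM in controls 4 and 5 on high fat diet and 20.9 to 29.5 CPM in the other 3, and 2.70 CPM in control 4 on normal diet and 7.97 to 20.5 CPM in the rest. The libraries on high fat diet also stood apart as whole libraries. The GC coefficient was 0.18 in knockout 2 and -0.22 to -0.10 in the other 4 of that group, and 0.17 and 0.19 in controls 4 and 5 and -0.26 to 0.03 in the other 3. The brown fat sum was 28159 CPM in knockout 2, and 25758 and 25196 CPM in controls 4 and 5, against 38475 to 48657 CPM in the other knockout and 32599 to 52058 CPM in the other control libraries on this diet. The mitochondrial share was 16.7% in knockout 2, against 19.7% to 26.0% in the others, and 17.1% and 18.1% in controls 4 and 5, against 20.5% to 25.9% in the others. Control 4 on normal diet had a mitochondrial share of 12.1% and a GC coefficient of 0.14, within the range of the others of its group. Their part in the levels of Psmd4, Psmd13 and Psma5 was not tested. Without knockout 2 on high fat diet, 2 members were called for genotype on normal diet in place of 1.

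Within groups the members varied unequally. Psmd2 was the steadiest, with a pooled SD of 0.09 log2 units at 4 weeks and 0.14 at 21 weeks. Psma5 was among the most variable, at 0.54 and 0.98. Psmd5 stood at 0.49 and 0.62, and Psmb5 at 0.51 at 4 weeks. At 21 weeks the assembly chaperone Psmg4, at a mean of 7.17 CPM, was the most variable, at 1.04. The member with most counts in each role at 21 weeks was Psma2 among alpha subunits, Psmb3 among beta subunits, Psmc3 among ATPases, Psmd8 among non-ATPases, Psmg3 among chaperones and Psme4 among activators. Their fold changes for genotype on normal diet were 0.22 for Psma2, -0.67 for Psmb3, -0.48 for Psmc3, -0.004 for Psmd8, 0.04 for Psmg3 and 0.05 for Psme4, none called. Psmb3 has 4 near-identical copies with which it can share reads.

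**Figure D4:**
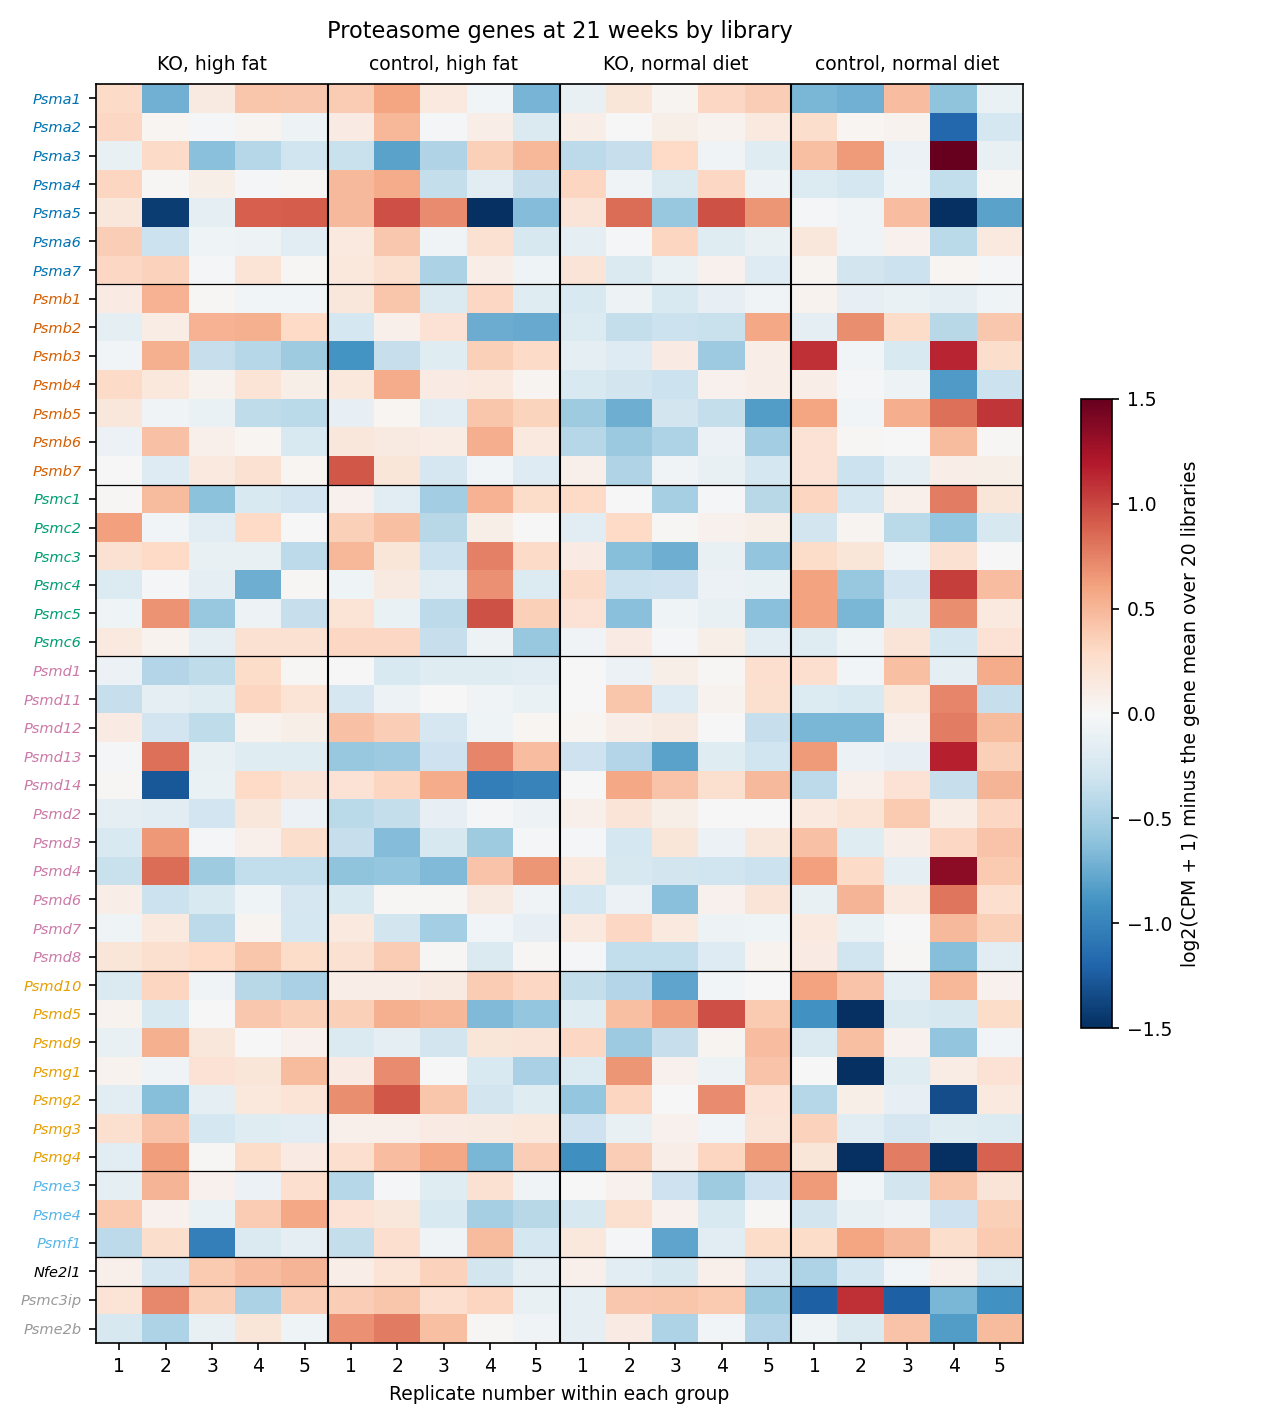
Log2(CPM + 1) of the 44 members minus each gene's mean over the 20 libraries of 21 weeks, with rows ordered by role and the groups side by side. Psmb5 and Psmb6 are low in the knockout libraries on normal diet, and Psmd4 and Psmd13 are high and Psma5 low in knockout 2 and controls 4 and 5 on high fat diet and in control 4 on normal diet.

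Lists of genes that act beside the proteasome hold no member. Of 15 genes that act in the processing of Nfe2l1, such as its deglycosylation and extraction from the membrane, edgeR called 0 for genotype at 4 weeks, where DESeq2 called 0 and 0 had an unadjusted p below 0.05. At 21 weeks edgeR called 0 of them on normal diet, where DESeq2 called 1 and 2 had an unadjusted p below 0.05, and on high fat diet all 3 of these counts were 0. Among 17 other proteasome partners tested at 4 weeks 15 had positive fold changes for genotype, with a median of 0.21, and 0 were called by edgeR, 2 had an unadjusted p below 0.05 and DESeq2 called 1. Among 18 such genes at 21 weeks Ubqln2, a shuttle factor that carries ubiquitinated proteins to the proteasome, was called higher in knockout mice on normal diet. Its fold change was 1.71 ± 0.40 (SE) with an edgeR adjusted p of 0.0250. On this diet 1.29% of all genes were called higher, and 10 of the 18 were positive and 8 negative. On high fat diet edgeR called 0 of the 18. The part of muscle transcripts and GC content in the level of Ubqln2 was not tested.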

How the data were processed

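Brown adipose tissue RNA was profiled by 3' tag sequencing in 15 libraries at 4 weeks and 20 at 21 weeks. Reads were aligned with STAR 2.5.3a to mm10 (GRCm38) and counted with featureCounts, per the submitters' processing notes. The sources used here do not give the annotation or the strand setting. The deposited values are raw counts per gene. The deposited tables of the authors also hold log2 fold changes and their p-values, from limma per the submitters' processing notes, and they are quoted only where named. At 21 weeks 18 date-like names, 0.09% of counts, were left out.

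The members and all gene lists were chosen with earlier results of these data known. Genes were kept by filterByExpr (minimum count 10), which left 10366 genes at 4 weeks and 12082 at 21 weeks, scaled by TMM and tested with edgeR 4.0.16 (R 4.3.3), robust quasi-likelihood, with Benjamini-Hochberg adjustment over all genes and a threshold of 0.05. The 4-week model held genotype and labelled sex, and the 21-week model the 4 groups. DESeq2 1.42.0 was the alternative tool. The procedure was tested on simulated counts with known changes. Every pair of replicates differed beyond counting noise.

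The text names Nfe2l1, every called member, the 3 members with the smallest p in each comparison and the member with most counts in each role. Members named beyond that rule, such as Psmb7, Psmd5, Psmd10 and Psmg4, were chosen after their values were seen. Replicate numbers did not pair samples: same-numbered deviations correlated above 0.1 in 2 of 6 pairs at 4 weeks and 6 of 30 at 21 weeks. Promoters are RefSeq's on GRCm38.p6, and gene positions and near-identical copies (95% identity over 100 bases or more of the last 300) come from a GRCm38 annotation.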

Additional observations from a re-analysis of the deposited data

Results flagged for a closer look

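Among the named genes, 172 combinations of gene and group were tested for a library standing apart from its group by Dixon's criterion, which chance meets in about 1 of 20, and 15 were met. Control 1 at 4 weeks, the smallest library of that experiment, was met for 3 genes, with 120 CPM of Psma7 and 80.4 CPM of Psmb6, both the lowest of the group, and 37.9 CPM of Psmd5, the highest. Knockout 2 on high fat diet was met for 3 genes as the highest of its group, with 187 CPM of Psmb1, 372 CPM of Psmd13 and 450 CPM of Psmd4. Knockout 1 on high fat diet had 334 CPM of Psma2, the highest of its group. On high fat diet control 1 had 64.0 CPM of Psmd1, control 2 had 302 CPM of Psmb4 and control 4 had 206 CPM of Psmb6. Knockout libraries on normal diet at 21 weeks stood apart for Psma6 (knockout 3, 79.7 CPM), Psmb2 (knockout 5, 47.8 CPM), Psmb6 (knockout 4, 132 CPM) and Psmd4 (knockout 1, 278 CPM), and control 1 on that diet for Psmg3 (60.4 CPM). The 132 CPM of Psmb6 in knockout 4 still lay below the lowest control library on normal diet, 140 CPM.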

How the results depend on the processing

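The count of members called for genotype at 4 weeks was 1 with DESeq2 size factors and with no filter on low counts, 2 with DESeq2 and with the library set beside labelled sex, and 0 with no term for sex, in libraries labelled female, within set A, within set B and with the replicate block, which left 2 of all genes called against 86. Leaving out 1 library gave 0 to 2. For labelled sex the 20 calls became 0 with the set beside sex or with the GC coefficient and 1 with the replicate block, and 14 to 24 without 1 library. On normal diet at 21 weeks DESeq2 called 4 members, and 2 were called without controls 2 and 4. Leaving out 1 library gave 1 to 4 members, with 4 without control 3 on that diet. It gave 2 each without control 2 on that diet or knockout 2 on high fat diet. For diet in control mice DESeq2 called 2, and the members' median fold change was -0.084 with the muscle score and -0.053 to 0.10 without 1 library, against 0.053. Signs turned for genes that were not called, at 4 weeks for Psmb5 (0.20 with the replicate block, 0.21 within set A, -0.35 to 0.0756 without 1 library) and Nfe2l1 (0.014 with the set in place of sex, 0.0717 without sex, 0.12 within set A) and, for sex, for Psma7 (-0.13 to 0.0541 without 1 library). For labelled sex they also turned for called genes with the GC coefficient, to 0.0538 for Psma6, -0.00454 for Psmb2, 0.0968 for Psmb5 and -0.0292 for Psmd13. With the set beside sex they turned to -0.30 for Psma5, 0.26 for Psma6, -0.45 for Psmb2, 0.27 for Psmb5, -0.0865 for Psmb6, 0.32 for Psmd11, -0.12 for Psmd12 and -0.12 for Psmd3. At 21 weeks Nfe2l1 turned to -0.14 with the GC coefficient on normal diet, and with the muscle score Psma7 to -0.0619 for genotype on normal diet and -0.0872 for diet in control mice. The cause was not tested. Over 436 single-gene alternatives other than leaving out a library, 358 kept direction and side of the threshold, 52 lost the threshold, 6 gained it and 20 turned. With the replicate block Psma7 at 4 weeks was 0.78 (adjusted p 0.409). At 21 weeks the block changed no count of members called, and Psmb5 on normal diet was -1.21 (adjusted p 0.0197). The GC coefficient, the addition of Gm3375 and leaving out the libraries with Xist against their label were chosen after seeing the data. Depth limits genes at few CPM, such as Psma5 and Psmg4 at 21 weeks.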
